A study of Bos taurus with 18 samples.

Results

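The 10 genes described here encode channels and transporters that carry magnesium, calcium and ammonium ions across membranes, and they were selected by name in the deposited count table of 27270 genes. They are TRPV3, TRPV4, TRPV6, TRPM6, TRPM7, CNNM2, CNNM3, CNNM4, SLC41A1 and MAGT1. Each of the 10 names occurred once in the table, and all 10 passed the filter on low counts that left 22202 genes for testing. The RNA came from papillae of the rumen wall of 9 Holstein cows that were not lactating and carried a rumen cannula. Of these cows 5 were controls and 4 received a supplement that the labels call PHY and do not expand. All cows were biopsied on a diet of 100% forage and again after the change to a high-grain diet with 65% concentrate. This gave the groups forage_control (n = 5 libraries), forage_PHY (n = 4), grain_control (n = 5) and grain_PHY (n = 4). The labels do not say whether PHY was already fed at the forage biopsy. No library is tied to a cow, so the forage and grain libraries of 1 cow enter the tests as if unrelated, and diet cannot be told apart from the order of the biopsies.

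The rumen is the main site of magnesium absorption in cattle and also takes up calcium and large amounts of ammonium from microbial protein breakdown. Cations enter the cells of this stratified epithelium from the lumen through channels such as those of the TRP (transient receptor potential) family, and leave on the blood side through exchangers and pumps. TRPV3 and TRPV4 are non-selective cation channels that open with warmth and other stimuli, TRPV3 also with plant monoterpenes, and bovine TRPV3 is permeable to ammonium. TRPV6 is a calcium-selective channel, and TRPM6 and TRPM7 are magnesium-permeable channels fused to a kinase. The CNNM proteins and SLC41A1 belong to magnesium efflux, with CNNM4 placed in the basolateral membrane of intestinal epithelium. MAGT1 is a subunit of the oligosaccharyltransferase and has also been described as a magnesium transporter.

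Library totals ran from 3953060 to 34471682 reads and had lower group medians on grain. They spanned 15808999 to 33935756 in forage_control, 18655841 to 34471682 in forage_PHY, 5433497 to 23949058 in grain_control and 3953060 to 15474334 in grain_PHY. Reads on 144 olfactory receptor genes, whose products serve the sense of smell, were used as a measure of background and summed to 16.3 to 65.0 CPM (counts per 1000000 reads) on forage in control cows and 20.8 to 32.2 in PHY cows. On grain they summed to 32.9 to 169 CPM in control cows and 42.1 to 345 CPM in PHY cows. The 3 libraries highest in this measure, grain_PHY 1, grain_control 1 and grain_control 4, were also the 3 with the fewest reads. The measure is per total reads, whereas levels of other genes are scaled by TMM unless stated. The TMM factors of these 3 libraries, 2.34, 1.52 and 1.37, were the largest. Scaled by TMM, the olfactory receptor sums would therefore stand lower in them. Markers of rumen epithelium were abundant in each library (KRT5 at 950 CPM or more), whereas KRT1 reached 8.44 CPM and KRT10 4.95 CPM at most. The summed level of the 8 epithelial markers spanned 7880 to 14500 CPM in forage_control, 10300 to 13900 in forage_PHY, 4530 to 12100 in grain_control and 3280 to 13000 in grain_PHY. Of these 8 genes 2 were called higher and 1 lower on grain over both arms, beside 18.1% higher and 13.8% lower of all genes tested. The 5 fibroblast and matrix markers summed to 255 to 2180, 177 to 2250, 834 to 1280 and 424 to 1890 CPM in the same order of groups. Smooth muscle markers summed to 46.8 to 281, 48.6 to 397, 74.5 to 258 and 79.4 to 278 CPM. Endothelial sums lay between 78.9 and 189 CPM over all libraries, and leukocyte sums between 35.4 and 55.6 CPM. Of the 7 leukocyte markers 2 were called higher and 0 lower on grain, and of the fibroblast, smooth muscle and endothelial markers 0 were called. In bulk tissue, fewer cells of a type and less RNA per cell cannot be told apart. The part of depth, background reads and cell content in the results below was not tested beyond the alternatives given beside them.

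**Figure D1:**
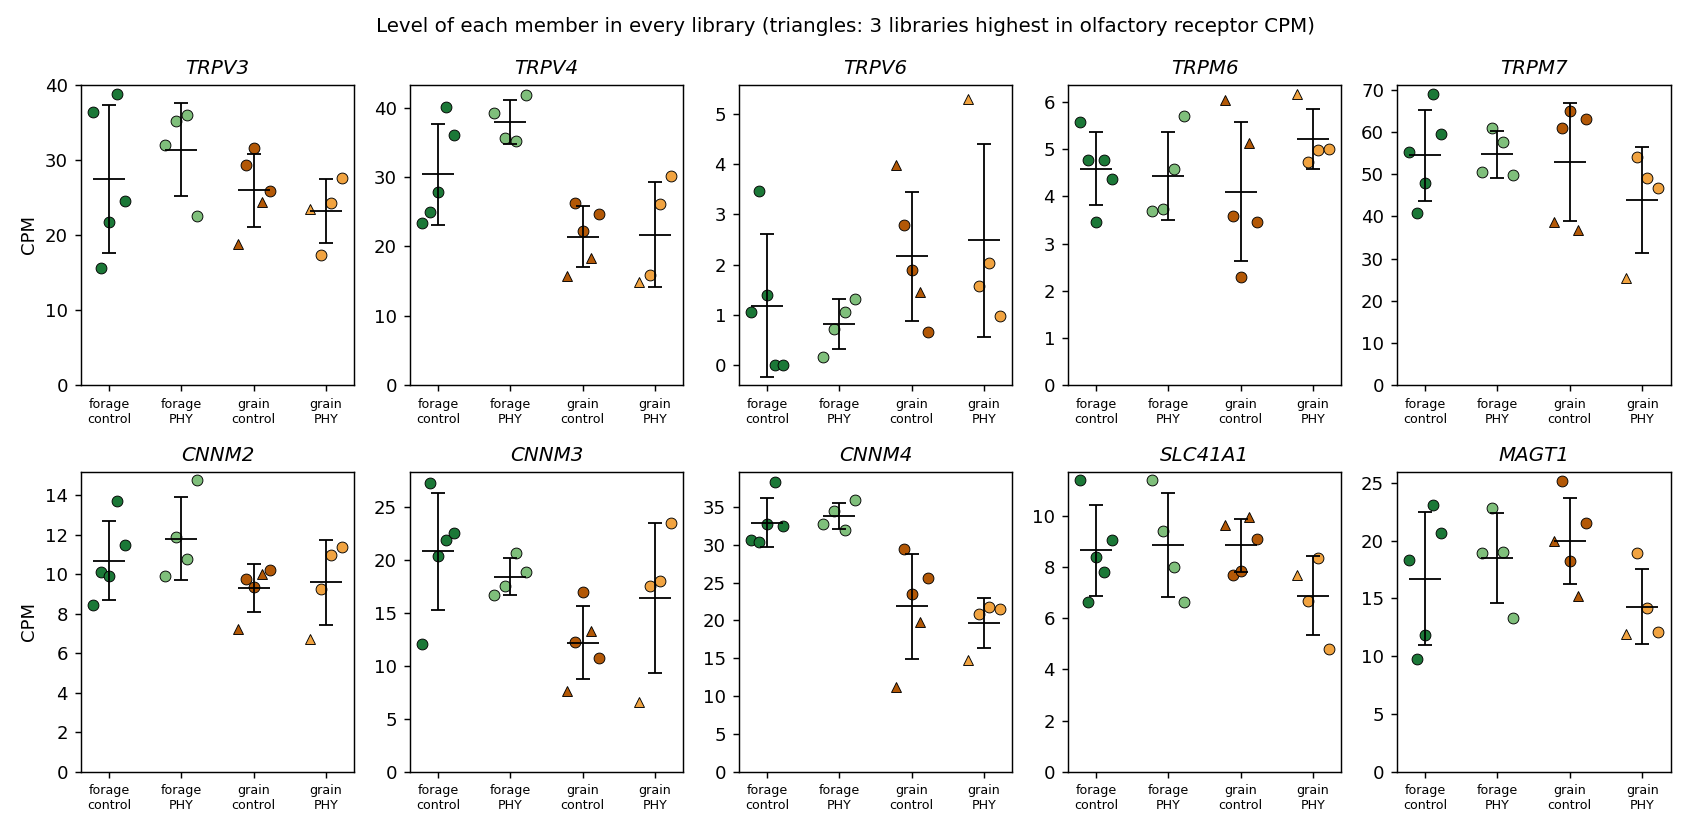
Level of each of the 10 genes (vertical axis, CPM scaled by TMM) in every library of the 4 groups (horizontal axis); points are libraries, bars the mean ± SD, and triangles the 3 libraries highest in olfactory receptor CPM. CNNM4 lies between 30.3 and 38.3 CPM in the 9 forage libraries and between 11.2 and 29.5 CPM in the 9 grain libraries.

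The first comparison asked how the 10 genes differed between high grain and forage over both arms. CNNM4 and TRPV4 fell on grain, and no member rose. In this comparison edgeR's quasi-likelihood test called 31.9% of all genes tested at a Benjamini-Hochberg adjusted p under 0.05, and 13.8% of all genes were called lower. The members' 2 calls of 10 are therefore near the share of all genes. The median log2 fold change was −0.22 over the 10 members and 0.20 over all genes tested, and the members ran from −0.68 for CNNM4 to 1.25 for TRPV6.

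CNNM4 (ENSBTAG00000019213), a sodium-dependent magnesium exporter, separated the diets. In forage_control the 5 libraries stood at 30.6, 30.3, 32.8, 38.3 and 32.5 CPM, and in forage_PHY the 4 stood at 32.7, 34.5, 32 and 35.9 CPM. On grain the control libraries stood at 11.2, 29.5, 23.5, 19.8 and 25.6 CPM and the PHY libraries at 14.8, 20.8, 21.8 and 21.5 CPM. Every grain library was below every forage library, and the lowest values, in grain_control 1 and grain_PHY 1, belong to the 2 libraries with the fewest reads. The mean went from 33.3 ± 2.58 CPM (SD, n = 9) on forage to 20.9 ± 5.43 CPM (n = 9) on grain, or 1.6-fold lower (log2 fold change −0.68 ± 0.16, SE; 95% confidence interval −1 to −0.36, edgeR adjusted p = 0.0202). Ranges of the 2 diets that do not overlap were found in 0.207% of the genes tested, and CNNM4 was the one member among them. They did not overlap with DESeq2's size factors either (30 to 36.6 CPM on forage and 12.1 to 28.9 CPM on grain). With levels scaled to total reads alone the ranges overlapped, at 21.9 to 32.3 CPM on forage and 17.1 to 34.7 CPM on grain. The value of 34.7 CPM is that of grain_PHY 1, whose TMM factor was 2.34. Within the grain libraries the TMM-scaled CNNM4 level mostly went with the total reads, from 11.2 CPM at 5433497 reads to 29.5 CPM at 23949058 reads. This order was not kept with total reads alone, where the library with the fewest reads stood highest. Among libraries of 15808999 to 23949058 reads, a window chosen after seeing the values, the 5 forage libraries stood at 30.3 to 35.9 CPM and the 3 grain libraries at 23.5, 25.6 and 29.5 CPM.

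TRPV4 (ENSBTAG00000000031), a cation channel that opens with warmth and cell swelling, fell by a similar amount with more overlap. Its level was 23.4, 24.9, 27.8, 40.1 and 36.1 CPM in forage_control and 39.3, 35.7, 35.2 and 41.9 CPM in forage_PHY. On grain it was 15.7, 26.2, 22.2, 18.3 and 24.7 CPM in control cows and 14.9, 15.8, 26.1 and 30.1 CPM in PHY cows. In forage_control 3 libraries, at 23.4 to 27.8 CPM, lay within the range of the grain libraries, and the other 2 lay above it. Forage libraries averaged 33.8 ± 6.81 CPM (n = 9), and those on grain averaged 21.6 ± 5.57 CPM (n = 9), that is 1.57-fold lower (log2 fold change −0.65 ± 0.17, 95% confidence interval −1 to −0.31, edgeR adjusted p = 0.0212).

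Both calls were lost in several alternative fits. Without grain_PHY 1, CNNM4 stood at −0.59 and TRPV4 at −0.55 (edgeR adjusted p = 0.0629 for each). Without the 3 libraries highest in olfactory receptor CPM both stood at −0.45 (adjusted p = 0.177 for CNNM4 and 0.181 for TRPV4), and CNNM4 then averaged 33.3 ± 2.58 CPM on forage (n = 9) and 23.8 ± 3.30 CPM on grain (n = 6). With log2 olfactory receptor CPM as a covariate CNNM4 was at −0.32 ± 0.15 and TRPV4 at −0.21 ± 0.15 (adjusted p = 0.999 for each). Scaled to total reads alone they were at −0.23 and −0.21 (adjusted p = 0.234 and 0.289). Of all genes tested, 0 were called with the covariate and 0 without the 3 libraries (1032 and 4136 at an unadjusted p under 0.05), and 8138 with total-read scaling. Without grain_PHY 1, 1 of all 22479 genes tested was called, so the loss there is not particular to these 2 members. Thinning every library to the lowest total kept both calls, at −0.41 ± 0.14 for CNNM4 (adjusted p = 0.0359) and −0.59 ± 0.14 for TRPV4 (adjusted p = 0.017). The thinned fit called 24.4% of all genes it tested.

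The direction of most other members depends on the scaling. With total reads alone the median of all genes moved from 0.20 to 0.75, and the log2 fold changes of TRPV3, TRPM7, CNNM2, SLC41A1 and MAGT1 then lay above 0. MAGT1 also lay above 0 with DESeq2's size factors, at 0.03. Relative to the median of all genes, 9 of 10 members were lower on grain under TMM, DESeq2's size factors and total reads, all but TRPV6. A change of scaling moves nearly all genes together, so the agreement of the 3 scalings follows from the measure and lends it no weight. That median also holds many low-level genes: 30.1% of genes under 5 CPM were called higher on grain, and 4.45% at or above it. All members but TRPV6 and TRPM6 averaged 5 CPM or more. CNNM4 lay 0.88, 0.89 and 0.98 below that median under the 3 scalings, given here as differences of log2 fold changes with no test. Among the members it was the lowest under each of these scalings.

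**Figure D2:**
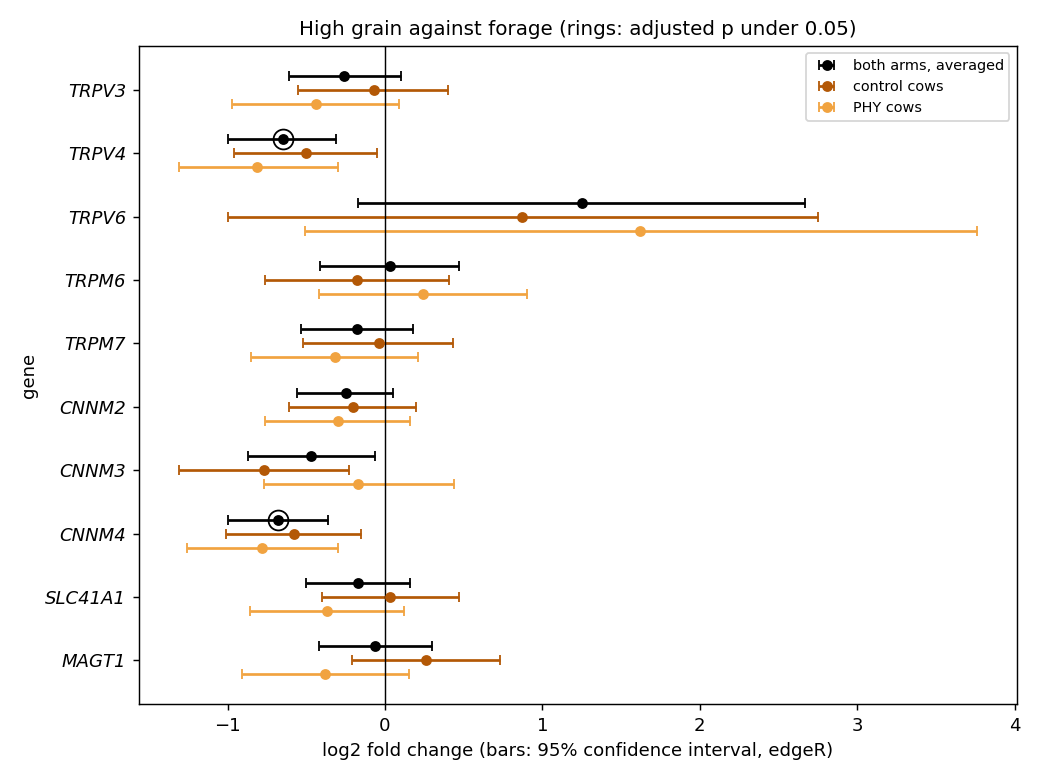
Log2 fold change of each gene on high grain against forage (horizontal axis), averaged over both arms (black), in control cows (brown) and in PHY cows (orange); bars are 95% confidence intervals from edgeR and rings mark an adjusted p under 0.05. CNNM4 at −0.68 and TRPV4 at −0.65 carry the only rings, and the intervals of TRPV6 are the widest.

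CNNM3 and CNNM2, relatives of CNNM4 with the same cyclin M core, lay on the same side without passing the test. CNNM3 stood at 12.1, 27.3, 20.4, 21.9 and 22.5 CPM in forage_control and 16.7, 17.5, 20.7 and 18.9 CPM in forage_PHY. On grain it stood at 7.61, 12.3, 17.0, 13.3 and 10.7 CPM in control cows and at 6.60, 17.5, 18 and 23.5 CPM in PHY cows. The control arm had 4 of 5 forage libraries above each of its grain libraries, and the PHY arm overlapped throughout. Averaged over arms the log2 fold change was −0.47 ± 0.20 (edgeR adjusted p = 0.0646). It passed without forage_control 1 (−0.54, adjusted p = 0.0492), grain_control 3 (−0.54, 0.0471) or grain_PHY 4 (−0.59, 0.0312). It was smaller without grain_PHY 1 (−0.31, 0.179), without the 3 libraries highest in olfactory receptor CPM (−0.24, 0.402), in limma voom (−0.18, 0.36), with the olfactory receptor covariate (−0.17, 0.999) and scaled to total reads (−0.10, 0.683). CNNM2, the member of the family tied to inherited low blood magnesium in humans, ranged from 8.44 to 14.8 CPM on forage and from 6.71 to 11.4 CPM on grain. Its log2 fold change was −0.25 ± 0.15 (adjusted p = 0.165). CNNM3 and CNNM4 are neighbours among the protein-coding genes of the RefSeq annotation of ARS-UCD2.0, another cattle assembly than that of the files.

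The magnesium channels TRPM6 and TRPM7 showed no difference by diet that passed the test. TRPM7, present in nearly all cell types, averaged 54.5 ± 10.8 CPM (n = 5) in forage_control, 54.7 ± 5.51 (n = 4) in forage_PHY, 52.9 ± 14.0 (n = 5) in grain_control and 43.9 ± 12.6 (n = 4) in grain_PHY. The log2 fold change was −0.18 ± 0.17 (95% confidence interval −0.53 to 0.18, edgeR adjusted p = 0.385). Its 3 lowest TMM-scaled grain values, 25.5, 38.6 and 36.7 CPM, were in the 3 libraries highest in olfactory receptor CPM, and without them it stood at 0.08. Scaled to total reads alone its lowest grain value, 38.2 CPM, was in grain_PHY 4, which is not one of these 3. TRPM6, the epithelial relative known from kidney and intestine, averaged 4.59 ± 0.77, 4.43 ± 0.939, 4.10 ± 1.48 and 5.22 ± 0.644 CPM in forage_control, forage_PHY, grain_control and grain_PHY. Its log2 fold change was 0.03 ± 0.21 (95% confidence interval −0.41 to 0.47, adjusted p = 0.905). The highest TRPM6 values on grain, 6.17, 6.04 and 5.13 CPM, were in the same 3 libraries in which TRPM7 was lowest under TMM. TRPM6 rested on 40 to 135 reads per library and TRPM7 on 236 to 1958.

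TRPV3 did not pass the test. TRPV3 (ENSBTAG00000000020), the warmth-gated channel of keratinocytes, stood at 36.5, 15.6, 21.8, 38.9 and 24.6 CPM in forage_control and at 32, 35.2, 36 and 22.5 CPM in forage_PHY. On grain it stood at 18.8, 29.4, 31.6, 24.5 and 25.9 CPM in control cows and at 23.5, 17.3, 24.3 and 27.6 CPM in PHY cows. The spread within forage_control, 15.6 to 38.9 CPM, holds all grain values. The log2 fold change was −0.26 ± 0.17 (95% confidence interval −0.61 to 0.10, edgeR adjusted p = 0.22), so that a fall of more than 0.61 on the log2 scale lies outside the interval.

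TRPV6 (ENSBTAG00000024219), the calcium-selective entry channel of absorptive epithelia, was near the limit of detection. It had 14, 58, 21, 0 and 0 reads in forage_control and 5, 23, 19 and 18 in forage_PHY. On grain it had 33, 68, 33, 20 and 14 reads in control cows and 49, 17, 34 and 10 in PHY cows. The 2 libraries without a read, forage_control 4 and 5, allow up to 3 reads, or 0.123 and 0.0968 CPM, counting error only. On forage it averaged 1.02 ± 1.07 CPM (n = 9), and on grain 2.30 ± 1.5 CPM (n = 9), a difference of 1.25 ± 0.69 on the log2 scale (edgeR adjusted p = 0.14). The 71 olfactory receptor genes that were tested had a median of 1.54 in the same contrast, and their 10th and 90th percentiles were 0.81 and 2.56, a range that holds the value of TRPV6. These 71 are the ones of 144 that passed the low-count filter. Such a filter can favour genes that are high in some libraries, so this range is a description only. With the olfactory receptor covariate TRPV6 stood at −0.24 ± 0.68. It passed in limma voom with quality weights (1.97 ± 0.61, adjusted p = 0.0136) and without forage_control 2, its highest forage library (1.75, edgeR adjusted p = 0.0474). TRPV6 lies beside its close relative TRPV5 in the RefSeq annotation, and how reads shared by such relatives were assigned is not given in the sources used here.

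SLC41A1 and MAGT1 stayed within the spread of their libraries. SLC41A1, a sodium-magnesium exchanger, ranged from 6.63 to 11.4 CPM on forage and from 4.81 to 9.96 CPM on grain (log2 fold change −0.17 ± 0.16, edgeR adjusted p = 0.379). MAGT1 ranged from 9.73 to 23.1 CPM on forage and from 11.9 to 25.2 CPM on grain (−0.06 ± 0.17, adjusted p = 0.781). For MAGT1 both diet means were 17.5 CPM, with an SD of 4.82 on forage and 4.49 on grain (n = 9 each).

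**Figure D3:**
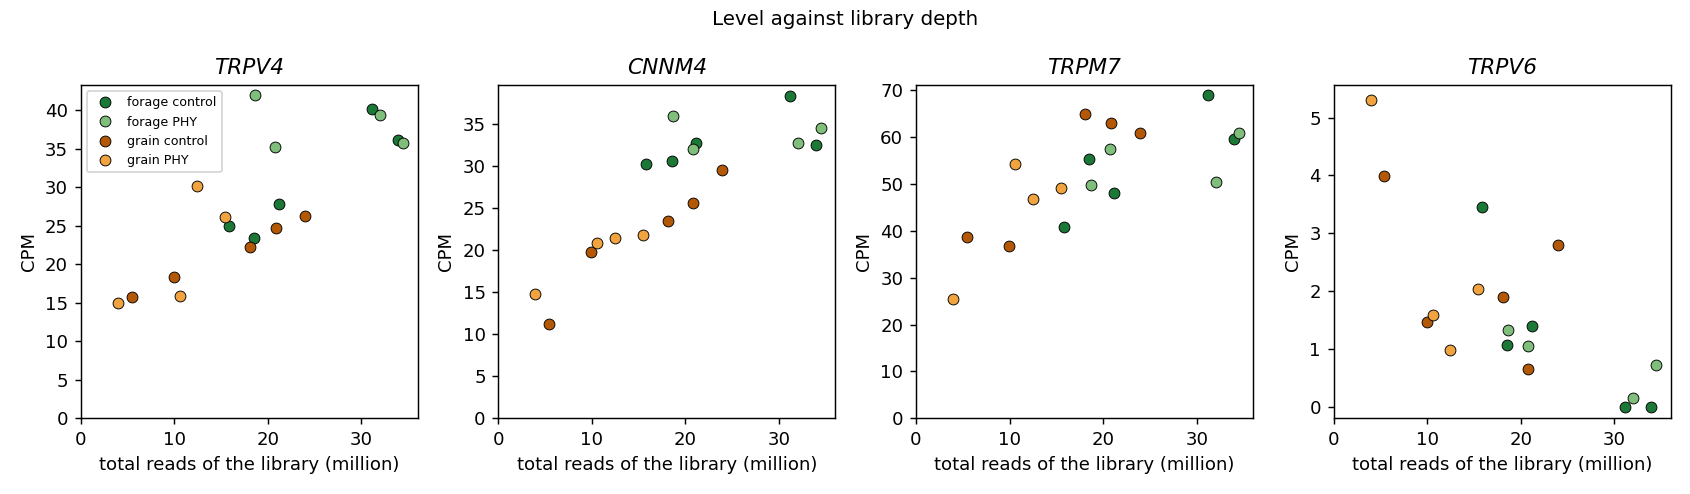
Level of TRPV4, CNNM4, TRPM7 and TRPV6 (vertical axes, CPM) against the total reads of the library (horizontal axes, in units of 1000000 reads); each point is 1 of the 18 libraries, coloured by group. Scaled by TMM, the grain libraries with the fewest reads, at 3953060 and 5433497, have the 2 lowest CNNM4 levels (14.8 and 11.2 CPM) and the 2 highest TRPV6 levels (5.30 and 3.99 CPM).

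The next comparisons took the arms one at a time. In control cows edgeR called 0 members and 0% of all genes tested, with 3 members (TRPV4, CNNM3 and CNNM4) and 2518 genes at an unadjusted p under 0.05. DESeq2 and limma voom also called 0 members and 0 genes in that arm. Of these 3, CNNM3 stood at −0.77 ± 0.26, CNNM4 at −0.58 ± 0.21 and TRPV4 at −0.50 ± 0.22 (edgeR adjusted p = 0.432 for each). In PHY cows edgeR again called 0 members and 0% of all genes, with 2 members and 8820 genes at an unadjusted p under 0.05, whereas DESeq2 called 5275 genes (23.8%) and limma voom 7895 (35.6%). There TRPV4 stood at −0.81 ± 0.25 and CNNM4 at −0.78 ± 0.23 (edgeR adjusted p = 0.0696 for each). DESeq2, limma voom and edgeR on the 2 PHY groups alone called both of them lower (adjusted p = 0.0221, 0.013 and 0.0399 for TRPV4 and 0.0173, 0.00931 and 0.0244 for CNNM4). The last of these fits called 24.1% of all genes it tested. Without grain_PHY 1 both stood at −0.61 in edgeR (adjusted p = 0.255). Ranges of the diets did not overlap for CNNM4 in control cows, where 1.35% of all genes had this property. They did not overlap for CNNM4 and TRPV4 in PHY cows, where 30% of all genes had it, so the separation in PHY cows is common among genes.

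The diet responses of the arms were then compared directly. The difference, PHY minus control, was called for 0 members and 0% of all genes by edgeR (0 members and 442 genes at an unadjusted p under 0.05; 0 members and 0 genes by DESeq2 and by limma voom). MAGT1 had the smallest unadjusted p: its diet response was 0.26 ± 0.23 in control cows and −0.38 ± 0.26 in PHY cows, a difference of −0.64 ± 0.35 (edgeR adjusted p = 0.954). For CNNM3 the difference was 0.60 ± 0.39, for CNNM4 −0.20 ± 0.31 and for TRPV4 −0.30 ± 0.33. These 4 members were singled out after their values were seen.

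The supplement was compared within each diet. On forage, PHY against control was called by edgeR for 0 members and 0% of all genes (0 members and 356 genes at an unadjusted p under 0.05). The members lay between −0.55 for TRPV6 and 0.32 for TRPV4. TRPV3 was at 0.19 with a 95% confidence interval of −0.31 to 0.70, CNNM4 at 0.04 with −0.41 to 0.49, and TRPM7 at 0.00 with −0.50 to 0.50. On high grain edgeR also called 0 members and 0% of all genes (0 members and 571 genes at an unadjusted p under 0.05). MAGT1 was lowest at −0.49 ± 0.25 (95% confidence interval −1 to 0.02, edgeR adjusted p = 0.999). Its mean was 20 ± 3.73 CPM (n = 5) in grain_control and 14.3 ± 3.26 CPM (n = 4) in grain_PHY. SLC41A1 was at −0.36 ± 0.23, TRPM7 at −0.27 ± 0.25, TRPV3 at −0.17 ± 0.25, TRPM6 at 0.36 ± 0.30 and CNNM3 at 0.42 ± 0.28. DESeq2 and limma voom called 0 members and 0 genes on either diet. The intervals reach up to 0.50 or more on the log2 scale for most members, and a p that misses the threshold does not show equal levels.

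**Figure D4:**
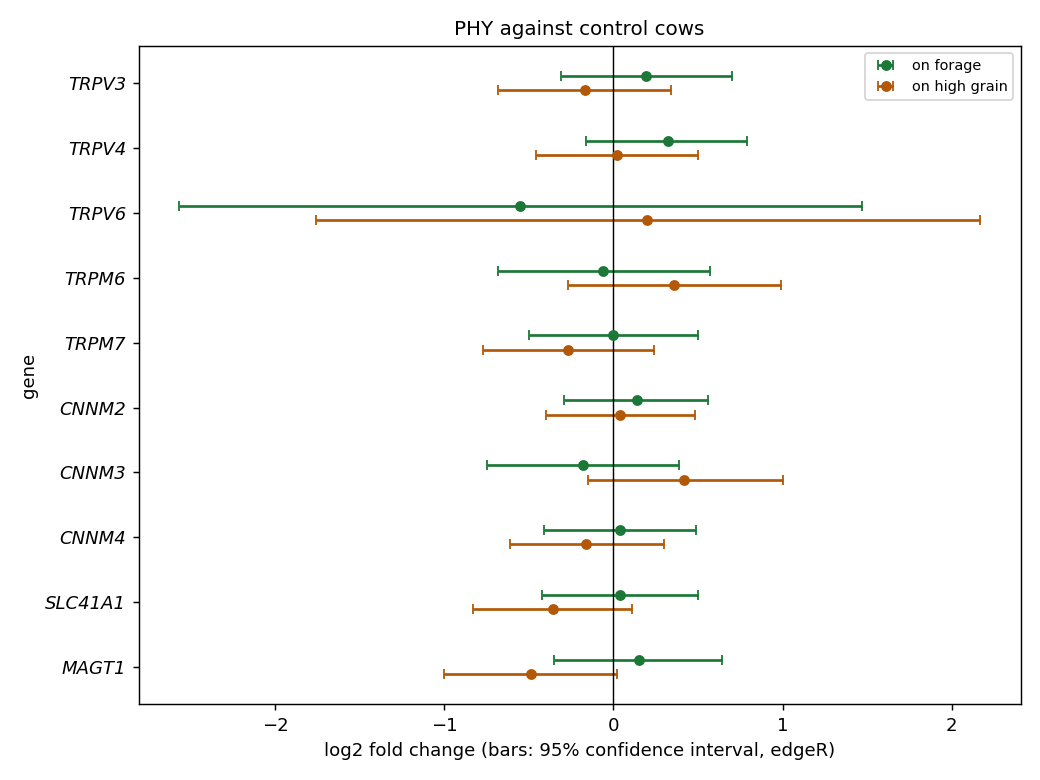
Log2 fold change of each gene in PHY against control cows (horizontal axis) on forage (green) and on high grain (brown); bars are 95% confidence intervals from edgeR. Every interval includes 0; on high grain MAGT1 lies lowest at −0.49 and CNNM3 highest at 0.42.

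Ordered by mean level over the 4 groups, CNNM4 was the one gene with neighbours in the order whose ranges did not overlap. Its order was forage_PHY, forage_control, grain_control and grain_PHY, with the step between forage_control (30.3 to 38.3 CPM) and grain_control (11.2 to 29.5 CPM) clear of overlap. Of all genes tested, 1.35% had no overlap between these 2 groups. TRPV4 went forage_PHY, forage_control, grain_PHY, grain_control, with means of 38 ± 3.18, 30.4 ± 7.28, 21.7 ± 7.56 and 21.4 ± 4.38 CPM. Its top and bottom groups did not overlap, while each pair of neighbours did. These 2 groups were picked by their means, and the share of all genes that they separate was not counted. The highest group mean was 1.78 times the lowest for TRPV4, 1.72 times for CNNM4 and 1.70 times for CNNM3. For TRPV3, TRPM6, TRPM7, CNNM2, SLC41A1 and MAGT1 the ratio was 1.25 to 1.40, and the ranges of the highest and lowest groups overlapped. TRPV6 reached a ratio of 3.06 from means of 0.810 ± 0.499 CPM in forage_PHY and 2.48 ± 1.93 CPM in grain_PHY, also with overlap.

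A wider list of 58 genes of magnesium, calcium and ammonium handling, chosen by function, put the members beside their pathway. Of these, 56 were in the table and all 56 were tested, as 57 rows because TRPM3 has 2. Averaged over arms 14 rows were called higher on grain and 7 lower, with a median log2 fold change of 0.16 against 0.20 over all genes. Of all genes 18.1% were called higher and 13.8% lower, so these 21 of 57 rows are near the background of 31.9%. By ion, 3 magnesium genes rose and 3 fell of 20, 10 calcium rows rose and 4 fell of 34, and 1 ammonium gene of 3 rose. With the olfactory receptor covariate edgeR called 0 of the 57 rows (2 at an unadjusted p under 0.05), and without the 3 libraries 0 (12 unadjusted). Scaled to total reads alone, 23 were called higher and 0 lower, beside 36.7% of all genes called. In control cows edgeR, DESeq2 and limma voom each called 0 rows (9, 11 and 14 unadjusted). In PHY cows edgeR called 0 (28 unadjusted), DESeq2 12 higher and 3 lower (23.8% of all genes called), and limma voom 15 higher and 13 lower (35.6%). For PHY against control on either diet and for the difference of responses, the 3 tools called 0 rows, with at most 7 unadjusted.

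Some of the genes that fell are described as partners of the members. Falls were common at their read level: at 5 CPM or more 29.3% of all genes were called lower, beside 25.9% of the list. TMEM94, a transmembrane protein linked to magnesium handling, went from 67.6 ± 8.77 CPM to 41.2 ± 11 CPM (n = 9 each; −0.72 ± 0.17, edgeR adjusted p = 0.0202). PTP4A2, a phosphatase of the family that binds CNNM proteins, was at −0.61 ± 0.23 (edgeR adjusted p = 0.0441), and the magnesium transporter relative NIPAL2 at −0.75 ± 0.23 (0.0271). Of the same family as PTP4A2, PTP4A1 at −0.34 ± 0.20 (0.169) and PTP4A3 at 0.12 ± 0.36 (0.791) did not pass. Neither did ARL15 at 0.10 ± 0.31 (0.796) and ANXA2 at −0.46 ± 0.24 (0.12), also of the list. S100A10, which helps bring TRPV5 and TRPV6 to the membrane, was at −0.61 ± 0.24 (0.0493), the mitochondrial sodium-calcium exchanger SLC8B1 at −0.59 ± 0.17 (0.0237) and the calcium-activated channel TRPM4 at −0.54 ± 0.18 (0.0311). Without passing the test, the plasma membrane calcium pump ATP2B1 was at −0.48 ± 0.19 (0.0512), the exchanger SLC8A1 at 0.49 ± 0.25 (0.115) and the vitamin D receptor VDR at 0.18 ± 0.17 (0.377). The vitamin D 24-hydroxylase CYP24A1 rose, from 0.62 ± 0.357 to 1.88 ± 1.86 CPM (1.61 ± 0.62, 0.0499), and so did the calcium-binding protein CALB1 (1.64 ± 0.51, 0.0262); both are named after their values were seen. SLC41A3, a relative of SLC41A1, was at −0.03 ± 0.18 (0.89), and the ammonium transporter RHBG went from 9.71 ± 1.77 to 7.74 ± 1.89 CPM (−0.35 ± 0.16, 0.0863).

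Among genes of the list averaging 1 CPM or more, the 6 largest rises were all in genes with few reads. They were TRPV1 (0.600 ± 0.274 to 3.14 ± 2.99 CPM, log2 fold change 2.38 ± 0.55), TRPV5 (0.820 ± 0.554 to 3.89 ± 2.47 CPM, 2.35 ± 0.46), TRPM5 (1.86 ± 0.66), CASR (1.82 ± 0.41), the calcium-sensing receptor, KL (1.81 ± 0.52) and CNNM1 (1.70 ± 0.44), with edgeR adjusted p between 0.0201 and 0.039. The ammonium gene that rose was RHAG, the Rh protein of red blood cells (0.235 ± 0.151 to 1.12 ± 0.683 CPM, 2.27 ± 0.71, edgeR adjusted p = 0.027). It averaged 0.677 CPM, its rise was larger than those of TRPM5, CASR, KL and CNNM1, and it is named after its value was seen. RHCG stood at 0.96 ± 0.63 (adjusted p = 0.209) and the calcium-binding protein S100G at 1.39 ± 0.65 (0.089). Below a mean of 5 CPM, 14 of 30 rows of the list rose and 0 fell, and at 5 CPM or more 0 of 27 rose and 7 fell. The same split held over all genes: 30.1% rose and 0.312% fell below 5 CPM, and 4.45% rose and 29.3% fell at or above it. Of the members, TRPV6 and TRPM6 had a mean below 5 CPM, and they were the 2 with a log2 fold change above 0.

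**Figure D5:**
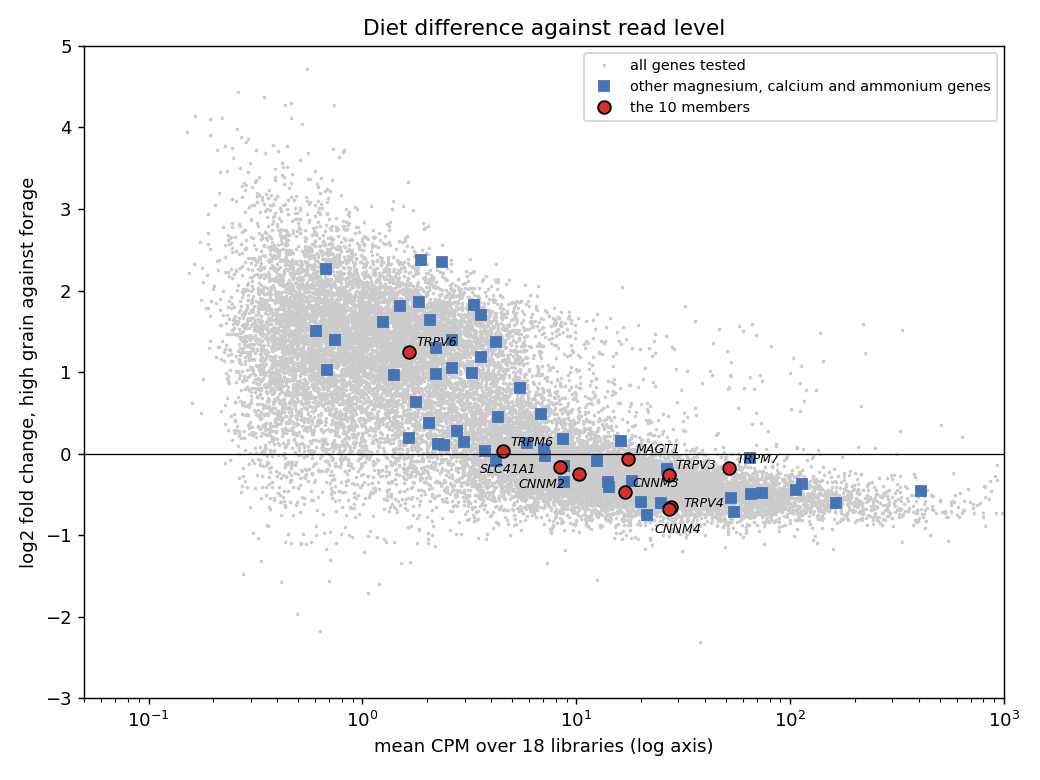
Log2 fold change on high grain against forage (vertical axis) against the mean CPM of the gene over 18 libraries (horizontal log axis); grey points are genes tested that lie within the axes, blue squares the other magnesium, calcium and ammonium genes and red circles the 10 members, each named. Genes with few reads lie mostly above 0 and genes with many reads mostly below, and TRPV6, at 1.25, lies among the former.

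Genes with the most similar pattern were sought for TRPV3, TRPM6 and TRPM7 among named genes averaging 5 CPM or more, by the correlation of log2 CPM over the 18 libraries. For TRPV3 the nearest of 9889 genes were FASTKD3 (r = 0.908), HACD3 (0.848) and RPE (0.848). TRPM7 had ZZZ3 (r = 0.959), MDM2 (0.953) and SF3B1 (0.952) nearest, and 0.951% of the genes searched exceeded 0.9. TRPM6 had no such close match: PAQR5 reached r = 0.677, PALD1 0.645 and TACO1 0.635. These values are descriptions of 18 libraries that also share differences in depth and background reads.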

How the data were processed

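RNA-seq libraries were made from total RNA of rumen papillae with a stranded kit, per the labels' protocols. The authors deposited a table of raw counts, whole-number reads per Ensembl gene, which was used for all tests; the deposited normalized table was not used. The submitters' processing notes name bcl2fastq 2.20, DESeq2 and the genome build bosTau9. Not given in the sources used here were the aligner, the counting tool with its use of strand, and the release of the annotation, so overlapping, antisense and near-identical genes may share reads. Gene names are those of the table.

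Counts were tested with edgeR 4.0.16 (R 4.3.3): filterByExpr by group (minimum count 10, minimum total 15), TMM, 1 mean per group over 18 libraries, robust quasi-likelihood F test, Benjamini-Hochberg over all 22202 genes tested. The biological coefficient of variation was 51.4%. SE is the absolute log2 fold change divided by the square root of F. CPM uses TMM-scaled library sizes unless another scaling is named. Olfactory receptor CPM, also as the covariate and for choosing the 3 libraries, uses total reads without TMM. Replicate numbers follow accession order. Total reads per library ran from 3953060 to 34471682. In simulated data for the diet comparison over both arms, the fit recovered 47 of 100 genes changed 2-fold and 62 of 100 changed 4-fold. It made 8 false calls. The simulation held no background reads that differ between libraries and no repeated sampling of cows. DESeq2 1.42.0 and limma 3.58.1 were alternatives, as were other scalings, filters, a background covariate, thinning and leaving out libraries. The members and lists were chosen with earlier results of these data known. The rule for named genes took all 10 members, of the wider list up to 6 called rises and 6 called falls with a mean of at least 1 CPM plus 9 preset genes, and 3 genes of similar pattern for each of 3 members (log2 CPM with a prior count of 2).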

Additional observations from a re-analysis of the deposited data

Results flagged for a closer look

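In 2 of the 40 sets formed by a member and a group, 1 library lay far from the others, and about 1 in 20 such sets would be expected to show this by chance. CNNM4 in grain_PHY 1 stood at 14.8 CPM, with the nearest of the other 3 libraries at 20.8 CPM. CNNM2 in grain_control 1 stood at 7.25 CPM, with the nearest of the other 4 at 9.34 CPM. These are the 2 libraries with the fewest reads, 3953060 and 5433497, and the 2 highest in olfactory receptor CPM, at 345 and 169. Both flags rest on TMM-scaled levels, with TMM factors of 2.34 and 1.52 in these libraries. Scaled to total reads alone, CNNM4 in grain_PHY 1 stood at 34.7 CPM, the highest of the grain libraries. CNNM2 in grain_control 1 was then not the lowest of its group.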

How the results depend on the processing

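Over both arms the number of members called was 2, beside 31.9% of all genes, and 3 in limma voom (45.6%). With total-read scaling (36.7% of all genes called) and with the olfactory receptor covariate (0%) it was 0. It was also 0 without the 3 libraries highest in olfactory receptor CPM (0%) and without grain_PHY 1 (0.00445%). Leaving out single libraries gave 0 to 3, beside 0.00445% to 43.3% of all genes. In PHY cows the number was 0 (0% of all genes), and 2 with DESeq2 (23.8%), limma voom (35.6%) and only the groups compared (24.1%). There, leaving out single libraries gave 0 to 2, beside 0% to 7.56% of all genes. In the other contrasts 0 members and 0% of all genes were called under each alternative run. Total-read scaling and leaving out the 3 libraries were chosen after seeing the data. The cause of these changes was not tested. Of all values, 1512 kept direction and side of the threshold, and 125 changed sign, none of them called in either fit. No paired analysis was possible because no label names the cow of a library and replicate numbers follow accession order. Thinning every library to 3953060 reads gave an SE of 0.14 for CNNM4 (0.16 before) and 0.14 for TRPV4 (0.17 before) over both arms. Log2 fold changes that changed sign follow by setting.

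With DESeq2's size factors, the diet response over both arms was 0.03 for MAGT1, and the effect of PHY on forage was −0.03 for TRPM7 and 0.00 for CNNM4. With the stricter filter, the effect of PHY on forage was 0.00 for TRPM7. Scaled to total reads, the diet response over both arms was 0.26 for TRPV3, 0.25 for TRPM7, 0.21 for CNNM2, 0.39 for SLC41A1 and 0.43 for MAGT1. The diet response of control cows was 0.42 for TRPV3, 0.39 for TRPM6, 0.41 for TRPM7 and 0.26 for CNNM2, and the diet response of PHY cows was 0.09 for TRPV3, 0.09 for TRPM7, 0.16 for CNNM2, 0.15 for CNNM3, 0.21 for SLC41A1 and 0.10 for MAGT1. There, the effect of PHY on grain was 0.00 for TRPV3. In DESeq2, the diet response over both arms was 0.03 for MAGT1, and the diet response of control cows was 0.00 for TRPM7. The effect of PHY on forage was −0.03 for TRPM7 and 0.00 for CNNM4. In limma voom, the diet response over both arms was −0.16 for TRPM6, and the diet response of control cows was 0.00 for TRPM7 and −0.14 for SLC41A1. There, the effect of PHY on forage was 0.63 for TRPV6, 0.13 for CNNM3 and −0.06 for SLC41A1, and the difference of responses was −0.60 for TRPV6. With the olfactory receptor covariate, the diet response over both arms was 0.04 for TRPV3, −0.24 for TRPV6, −0.28 for TRPM6, 0.32 for TRPM7, 0.03 for CNNM2 and 0.31 for MAGT1. The diet response of control cows was 0.15 for TRPV3, 0.32 for TRPM7, 0.01 for CNNM2 and −0.03 for SLC41A1, and the diet response of PHY cows was −0.80 for TRPV6, −0.13 for TRPM6, 0.32 for TRPM7, 0.05 for CNNM2, 0.21 for CNNM3 and 0.08 for MAGT1. There, the effect of PHY on forage was 0.46 for TRPV6, −0.09 for TRPM7 and −0.05 for CNNM4, and the effect of PHY on grain was −0.67 for TRPV6. The difference of responses was −1.13 for TRPV6, 0.05 for CNNM2 and 0.05 for CNNM4. After thinning, the diet response over both arms was 0.00 for TRPV3, 0.24 for SLC41A1 and 0.07 for MAGT1, and the diet response of control cows was 0.14 for TRPV3, 0.19 for TRPM6 and 0.14 for TRPM7. There, the diet response of PHY cows was 0.02 for CNNM3 and 0.05 for SLC41A1, and the effect of PHY on forage was −0.06 for CNNM4. The difference of responses was 0.01 for CNNM4. Without the 3 libraries, the diet response over both arms was −0.16 for TRPM6, 0.08 for TRPM7 and 0.08 for MAGT1, and the diet response of control cows was 0.08 for TRPV3, 0.20 for TRPM7 and −0.08 for SLC41A1. There, the diet response of PHY cows was 0.18 for CNNM3, and the effect of PHY on forage was −0.04 for TRPM7, −0.02 for CNNM4 and 0.00 for SLC41A1. The effect of PHY on grain was −0.15 for TRPV6, and the difference of responses was 0.09 for CNNM2. With only the groups compared, the diet response of control cows was 0.01 for TRPM7. There, the effect of PHY on forage was −0.06 for TRPM7, −0.04 for CNNM4 and −0.03 for SLC41A1.

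Leaving out single libraries gave these ranges where the sign changed. For diet over both arms they were TRPM6 −0.05 to 0.11, MAGT1 −0.15 to 0.02. For diet in control cows they were TRPV3 −0.22 to 0.08, TRPM7 −0.13 to 0.07, SLC41A1 −0.05 to 0.15. For diet in PHY cows they were CNNM3 −0.40 to 0.14. For PHY on forage they were TRPV6 −0.89 to 0.44, TRPM6 −0.19 to 0.02, TRPM7 −0.08 to 0.10, CNNM4 −0.01 to 0.10, SLC41A1 −0.10 to 0.16. For PHY on grain they were TRPV4 −0.19 to 0.15, TRPV6 −0.47 to 0.54, CNNM2 −0.06 to 0.16. For the difference of responses they were TRPV6 −0.23 to 1.10, CNNM2 −0.20 to 0.07.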

Other observations

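Ratios of read counts within a library do not depend on the scaling, and they give the balance between related members in each group, with no test. TRPV3 reads per TRPV4 read averaged 0.926 ± 0.379 (SD, n = 5) in forage_control, 0.840 ± 0.222 (n = 4) in forage_PHY, 1.23 ± 0.154 (n = 5) in grain_control and 1.13 ± 0.306 (n = 4) in grain_PHY. The ranges of forage_PHY (0.537 to 1.02) and grain_control (1.05 to 1.42) did not overlap, and each other pair of groups overlapped. These 2 groups differ in both diet and treatment and were picked after their values were seen. The share of gene pairs with such a gap was not counted. TRPM6 reads per TRPM7 read ranged from 0.0693 to 0.117 in forage_control, 0.0613 to 0.115 in forage_PHY, 0.0353 to 0.156 in grain_control and 0.0872 to 0.242 in grain_PHY. The neighbours CNNM3 and CNNM4 had a ratio of 0.636 ± 0.185 (n = 5) in forage_control, 0.547 ± 0.0662 (n = 4) in forage_PHY, 0.582 ± 0.151 (n = 5) in grain_control and 0.801 ± 0.267 (n = 4) in grain_PHY. Gene lengths differ, so these ratios compare groups and not the levels of the 2 genes.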
